A study of Danio rerio with 9 samples.

Results

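The nuclear genes for the mitochondrial respiratory chain and ATP synthase were followed in sorted brain neurons of adult zebrafish with and without axon regrowth. Members were all genes whose array annotation gives exactly 1 symbol beginning with nduf, sdha to sdhd, uqcr, cyc1, cox4 to cox8 or atp5, with cox4i1l, cox4i2 and cox6b1 left out. This gave 83 of the 8793 named genes on the array, read by 90 probe sets. They comprise 31 genes of complex I, 4 of complex II, 8 of complex III, 13 of complex IV and 18 of complex V, and 9 genes named as assembly factors of complexes I and II. The genes ndufa4a and ndufa4b were counted with complex IV, since the human NDUFA4 protein is held to be a subunit of cytochrome c oxidase.

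Oxidative phosphorylation supplies most of the ATP that neurons use. Complexes I and II pass electrons from NADH and succinate to ubiquinone, complex III passes them to cytochrome c, and complex IV, cytochrome c oxidase, passes them to oxygen. Complexes I, III and IV pump protons out of the mitochondrial matrix, and complex V, the ATP synthase, lets them return and makes ATP.

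Expression was measured on 9 Affymetrix 3' IVT arrays, 3 for each of 3 groups. Adult fish of the regenerated and nonregenerated groups had their spinal cord completely cut at vertebra 8, with the retrograde tracer Fluororuby applied there. The tracer Fluoroemerald, given 3 weeks later and 4 mm beyond the cut, marked neurons whose axons had regrown, and brains were dissociated and sorted by fluorescence after 1 more week. Unlesioned adult fish received Fluororuby at the same vertebra and were sampled after 1 week, so time since the first tracer also differs between lesioned and unlesioned groups. Strain, the number of fish pooled per array, the exact sort gates, and whether both lesioned groups came from the same fish are not stated in the labels or the design text. By their titles the 3 samples of each group are biological replicates. RNA was amplified before labelling, and the number of arrays limits the precision of every value.

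The values are on a log2 scale and each probe set is centred on its own median over the 9 arrays. A value of 0 is therefore a gene's own middle level, levels of different genes cannot be compared, and no gene can be said to be absent. Errors after ± are standard errors of the limma fit unless SD is named, and a gene was called at a limma Benjamini-Hochberg adjusted p under 0.05 over all 8793 genes. In these bulk samples, fewer cells of a type and less RNA per cell cannot be told apart.

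The regenerated arrays differed from the others and among themselves in some technical readings. In regenerated array 1 the median over 22 negative control probe sets was 0.48, with 0.04 and 0.28 in regenerated arrays 2 and 3 and -0.16 to 0.08 in the other 6 arrays. The actin control's difference between 3' and 5' probe sets, which here compares arrays only, is meant as a reading of RNA quality. This control is named acta1, a skeletal muscle actin, so in brain neurons it may not follow RNA quality. The difference was -0.77, -0.08 and 0.57 in regenerated arrays 1, 2 and 3 and -0.08 to 0.19 in the others. Arrays 1 and 3 thus lay on opposite sides of the rest. The same reading of the GAPDH control was 0.21, -0.36 and 0.04 in the regenerated arrays and -0.34 to 0.60 in the others, with the highest value in unlesioned array 2. The SD over probe sets was 0.594 to 0.650 in the regenerated arrays and 0.349 to 0.430 in the others. Since each probe set is centred over the 9 arrays, this SD also holds differences in expression between groups and is not a technical reading alone.

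Most respiratory chain genes had higher estimates in regenerated than in nonregenerated neurons. The estimate was above 0 for 82 of 83 members, against 55.4% of all genes, and the median difference over the members was 0.58 against 0.056 over all genes. The 3 genes that passed the test, ndufa4b, cox5ba and atp5md, all rose, and 1.25% of all genes were called higher. An unadjusted p under 0.05 was reached by 36 members in the higher direction and none in the lower, where 8.32% of all genes were higher. All 3 regenerated arrays lay above all 3 nonregenerated arrays in 37 members, or 44.6%, against 12.8% of all genes.

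Against unlesioned neurons, 80 of 83 members had estimates above 0, where 56.3% of all genes did. The median was 0.46 over the members and 0.059 over all genes. The only member called was ndufa4b, with 0.910% of all genes called higher. An unadjusted p under 0.05 was reached by 27 members, all higher, against 6.95% of all genes, and the groups did not overlap in 32 members, all higher, against 11.0%. This comparison and the first share the regenerated arrays and are not independent of each other.

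Between nonregenerated and unlesioned neurons no member was called in either direction, and no gene of the array was (0% called lower). At an unadjusted p under 0.05 limma gave 2 members, both lower, where 2.59% of all genes were lower and 474 genes passed in either direction. The median over the members was -0.10, and 25 of 83 estimates were above 0, against 47.8% of all genes. The groups did not overlap in 4 members, ndufab1b, ndufs7, sdha and cyc1, each lower in nonregenerated neurons, where 5.93% of all genes were.

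**Figure D1:**
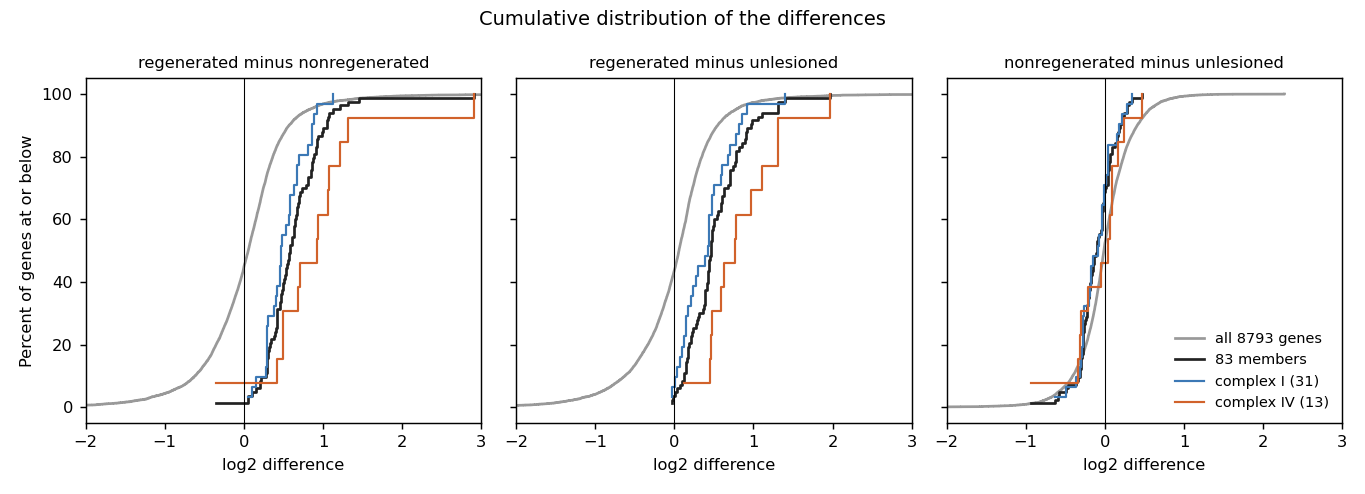
Cumulative percent of genes at or below each log2 difference, for all 8793 genes, the 83 members, complex I and complex IV, in each of the 3 comparisons (the axis ends before the most extreme of all genes). The members' curve lies to the right of all genes in both comparisons with regenerated neurons (medians 0.58 and 0.46) and slightly to the left in nonregenerated minus unlesioned (median -0.10).

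Within the regenerated group the arrays were unequal. Mean values over the 83 members were 0.09, 0.58 and 0.64 in regenerated arrays 1, 2 and 3. They were -0.34, -0.26 and 0.02 in the nonregenerated arrays and -0.10, -0.23 and 0.07 in the unlesioned arrays. Regenerated array 1 thus lay just above the highest of the other 6 arrays, and arrays 2 and 3 lay far above it. Regenerated array 2 was the highest of all 9 arrays for 40 members and array 3 for 37, while array 1 was the highest for 2.

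When the fit included the negative control reading as a term, 81 of 83 estimates against nonregenerated neurons were above 0. The 4 members called in it were ndufa4b, cox6a1, cyc1 and ndufab1a, while cox5ba and atp5md were no longer called. Of all genes 1.55% were called in that fit in either direction, against 2.96% in the main fit. The part of the 3' minus 5' control readings in the members' differences was not tested. Without regenerated array 1, the median against nonregenerated neurons was 0.81 over the members and 0.061 over all genes. The 7 members called in that fit were ndufa4b, cox5ba, atp5md, cox6a1, cyc1, ndufab1a and sdhaf2, with 3.87% of all genes called. With arrays 1 and 3 both left out, array 2 is the only regenerated array, and 79 of 83 estimates were above 0. The number of members called was 5 without unlesioned array 2, where 2.15% of all genes were called. Among the members only ndufa4b was called without nonregenerated array 1 or 2 or regenerated array 2 or 3. In these fits 1.24% to 2.21% of all genes were called.

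The complexes differed in how far array 1 took part. All 3 regenerated arrays lay above all 6 other arrays in 27 of 83 members, against 5.99% of all genes. These were 9 of 13 members of complex IV, 8 of 18 of complex V, 4 of 8 of complex III, 5 of 31 of complex I, 1 of 4 of complex II and none of the 9 assembly factors. Taken alone, regenerated array 1 lay above the other 6 arrays in 10 of 13 members of complex IV but in 5 of 31 of complex I, where 24.5% of all genes did so. Arrays 2 and 3 each did so in 24 of 31 members of complex I, against 22.2% and 28.5% of all genes. Whether the complexes differ beyond the spread between arrays was not tested.

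**Figure D2:**
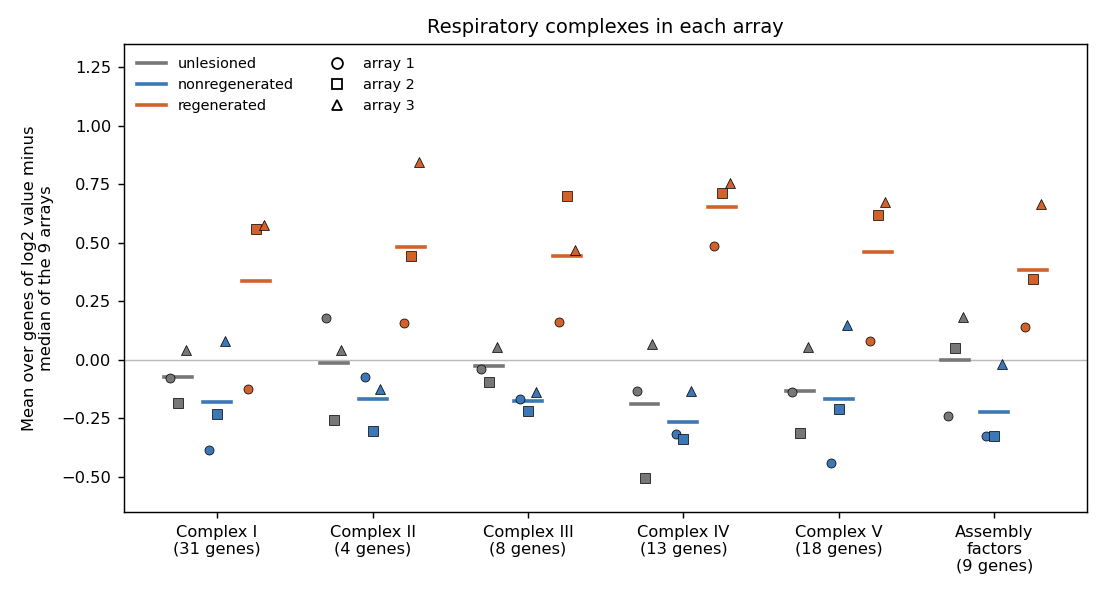
Mean log2 value over the members of each complex in each of the 9 arrays, with points for arrays and bars for group means. Complexes III and IV have all 3 regenerated points above the other 6, while in complex I the lowest regenerated point, array 1 at -0.12, lies among the other groups.

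Complex I, the NADH dehydrogenase, had the smallest median difference of the 5 complexes in both comparisons with regenerated neurons, 0.47 against nonregenerated and 0.43 against unlesioned. None of its 31 members was called, and 8 reached an unadjusted limma p under 0.05 against nonregenerated neurons, all higher, where 8.32% of all genes did. Mean values over the complex were -0.12, 0.56 and 0.58 in the regenerated arrays, -0.39, -0.23 and 0.08 in the nonregenerated and -0.08, -0.19 and 0.04 in the unlesioned. The regenerated arrays 2 and 3 were the highest of the 9, and array 1 was within the range of the others. The median without array 1 and array 3, which leaves array 2 as the only regenerated array, was 0.76.

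The 5 measured genes for subunits that carry the flavin and iron-sulphur clusters of complex I had a median of 0.30 against nonregenerated neurons. Their differences ran from 0.05 to 0.48, where the median of complex I was 0.47. A contrast with the other subunits was not tested. The iron-sulphur subunit gene ndufs1 had values of 0.15, 0.58 and 0.44 in regenerated, -0.15, -0.20 and 0.08 in nonregenerated and -0.03, 0.00 and -0.23 in unlesioned arrays. All regenerated values lay above the rest, and the difference from nonregenerated neurons was 0.48 ± 0.19 (limma adjusted p = 0.239). The gene for the flavin subunit that takes up NADH, ndufv1, had regenerated values of -0.10, -0.19 and 0.85. Only array 3 was high, and the difference of 0.05 ± 0.28 (limma adjusted p = 0.949) was the lowest of complex I and changed sign under other scalings.

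Among the accessory subunits, those with the smallest p were ndufa9a, ndufs5 and ndufab1b. Others, such as ndufb9 at 0.11 ± 0.27, had differences within the range of the subunits that carry the clusters. The gene ndufa9a, whose mammalian counterpart sits near the ubiquinone site, had values of 0.28, 0.82 and 0.69 in regenerated, -0.58, -0.24 and 0.00 in nonregenerated and -0.53, -0.26 and 0.00 in unlesioned arrays. The regenerated arrays did not overlap the others, and the difference was 0.87 ± 0.24 against nonregenerated neurons (limma adjusted p = 0.0937). The accessory subunit gene ndufs5 had 0.23, 0.59 and 0.62 in regenerated, -0.34, -0.98 and 0.00 in nonregenerated and 0.21, -0.42 and -0.16 in unlesioned arrays. Unlesioned array 1 came within a small distance of regenerated array 1, and the difference from nonregenerated neurons was 0.92 ± 0.28 (limma adjusted p = 0.128).

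The membrane arm gene ndufb5 had the largest difference from unlesioned neurons in complex I. Its values were 0.40, 1.14 and 0.90 in regenerated, -0.68, -0.26 and 0.00 in nonregenerated and -1.37, -0.57 and 0.17 in unlesioned arrays. The unlesioned arrays were the most spread. The difference was 1.40 ± 0.38 from unlesioned neurons (limma adjusted p = 0.104) and 1.12 ± 0.38 from nonregenerated neurons (limma adjusted p = 0.167). The 10 measured ndufb and ndufc genes together had medians of 0.50 and 0.43 in the comparisons with nonregenerated and unlesioned neurons.

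Both copies of the acyl carrier protein gene were measured, a subunit that also serves mitochondrial fatty acid synthesis. The copy ndufab1b had 0.28, 0.42 and 0.00 in regenerated, -0.81, -0.47 and -0.12 in nonregenerated and 0.22, 0.31 and -0.04 in unlesioned arrays. All 3 nonregenerated arrays lay below the other 6. It was the member with the smallest p between nonregenerated and unlesioned neurons, at -0.63 ± 0.23 (limma adjusted p = 0.817), and its difference between regenerated and nonregenerated neurons was 0.70 ± 0.23 (limma adjusted p = 0.150). The copy ndufab1a was the mean of 3 probe sets, with the suffixes _a_at and _x_at. The suffix _x_at marks possible cross-hybridization, while _a_at marks probes shared by transcripts of the same gene. It had -0.69, 1.53 and 0.83 in the regenerated arrays, which ran from below to above all others. Its difference from nonregenerated neurons was 0.89 ± 0.48 (limma adjusted p = 0.385). Without regenerated array 1, ndufab1a was called.

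Complex II, succinate dehydrogenase, links the Krebs cycle to the chain. Its 4 members had a median of 0.60 against nonregenerated and 0.46 against unlesioned neurons, and none was called. The membrane anchor gene sdhc had 0.29, 0.98 and 0.60 in regenerated, 0.00, -1.23 and -0.05 in nonregenerated and 0.12, -0.48 and -0.11 in unlesioned arrays. All 3 regenerated values were above the other 6. Its differences were 1.05 ± 0.35 from nonregenerated (limma adjusted p = 0.161) and 0.78 ± 0.35 from unlesioned neurons (limma adjusted p = 0.330).

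The other anchor gene, sdhdb, had 0.54, 0.10 and 0.90 in the regenerated arrays, -0.54 to 0.00 in the nonregenerated and -0.33 to 0.65 in the unlesioned. The regenerated arrays lay above the nonregenerated and overlapped the unlesioned, with a difference of 0.70 ± 0.31 from nonregenerated neurons (limma adjusted p = 0.290). The catalytic subunits differed by less. The flavoprotein gene sdha had -0.26, 0.73 and 0.48 in the regenerated arrays and a difference of 0.51 ± 0.25 from nonregenerated neurons (limma adjusted p = 0.348). The iron-sulphur protein gene sdhb had 0.06, -0.03 and 1.40, so that array 3 alone was high, and a difference of 0.34 ± 0.38 (limma adjusted p = 0.688). Without regenerated array 3 the sdhb difference was -0.12.

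Complex III had a median of 0.60 against nonregenerated and 0.44 against unlesioned neurons over 8 genes, with none called. Its mean values were 0.16, 0.70 and 0.47 in the regenerated arrays, -0.22 to -0.14 in the nonregenerated and -0.09 to 0.06 in the unlesioned, with no overlap. Without regenerated array 1, the median against nonregenerated neurons was 0.83. The gene for cytochrome c1, cyc1, which hands electrons to cytochrome c, had 0.34, 1.14 and 0.79 in regenerated, -0.03, -0.10 and -0.32 in nonregenerated and 0.00, 0.00 and 0.15 in unlesioned arrays. The 3 groups did not overlap, with nonregenerated lowest, and the regenerated minus nonregenerated difference was 0.91 ± 0.22 (limma adjusted p = 0.0662).

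The small subunits measured in complex III were uqcrq, uqcrb and uqcrh. The gene uqcrq had 0.63, 0.76 and 0.57 in regenerated, -0.39, -0.49 and -0.17 in nonregenerated and 0.00, -1.01 and 0.01 in unlesioned arrays. The regenerated arrays lay close together and above the rest, at 1.00 ± 0.28 over nonregenerated (limma adjusted p = 0.0943) and 0.98 ± 0.28 over unlesioned neurons (limma adjusted p = 0.115). The gene uqcrb, with 0.72, 0.87 and 0.43 in the regenerated arrays and no value above 0.33 elsewhere, had a difference of 0.87 ± 0.22 from nonregenerated neurons (limma adjusted p = 0.0711). The difference of uqcrh, the hinge protein gene, was 0.65 ± 0.21 (limma adjusted p = 0.154).

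The other members of complex III are the Rieske and core protein genes. The Rieske iron-sulphur protein gene uqcrfs1 had -0.18, 0.22 and 0.06 in the regenerated arrays, within the range of the unlesioned arrays. Its difference of 0.21 ± 0.22 from nonregenerated neurons (limma adjusted p = 0.670) was the lowest of the complex. The core protein genes uqcrc1, uqcrc2a and uqcrc2b had differences of 0.42 ± 0.32, 0.32 ± 0.20 and 0.55 ± 0.36, and in each of them regenerated array 1 overlapped the nonregenerated arrays.

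Complex IV, cytochrome c oxidase, had the largest medians, 0.93 against nonregenerated and 0.77 against unlesioned neurons. The groups did not overlap in 10 of 13 members in the first comparison and in 11 of 13 in the second, all higher in regenerated neurons, against 12.8% and 11.0% of all genes. Mean values over the complex were 0.49, 0.71 and 0.76 in the regenerated arrays, -0.32, -0.34 and -0.13 in the nonregenerated and -0.13, -0.50 and 0.07 in the unlesioned. All 3 regenerated arrays were high, array 1 included. The medians fell to 0.70 against nonregenerated neurons without nonregenerated array 2, and to 0.45 against unlesioned neurons without unlesioned array 2, whose members of complex IV were the lowest of any array on average.

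The largest difference of any member was in ndufa4b, a zebrafish copy of NDUFA4. Its values were 1.58, 2.00 and 1.52 in regenerated, -0.43, -1.45 and -1.74 in nonregenerated and -0.81, 0.00 and 0.01 in unlesioned arrays. The regenerated arrays lay far above the rest, and the nonregenerated and unlesioned arrays overlapped. It rose by 2.90 ± 0.36 over nonregenerated neurons, or 7.49-fold (95% interval 2.10 to 3.71 on the log2 scale, limma adjusted p = 0.00394). Counted from the highest difference, it ranked 17 of 8793 genes in that comparison, and it was called in all 20 other fits tried, with adjusted p from 0.00194 to 0.0252.

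Against unlesioned neurons ndufa4b rose by 1.97 ± 0.36, or 3.91-fold (limma adjusted p = 0.0261). This call was lost in 8 of 20 other fits, including those without unlesioned array 1, 2 or 3 and without regenerated array 2 or 3, where the difference was 1.69 to 2.11. Between nonregenerated and unlesioned neurons its difference was -0.94 ± 0.36 (limma adjusted p = 0.883).

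The other copy, ndufa4a, was the only member with an estimate below 0 against nonregenerated neurons. It had 0.00, -0.49 and 0.68 in regenerated, -0.12, 0.70 and 0.64 in nonregenerated and -0.09, -0.25 and 0.15 in unlesioned arrays, and the groups overlapped. The difference was -0.35 ± 0.33 from nonregenerated (limma adjusted p = 0.630) and 0.13 ± 0.33 from unlesioned neurons (limma adjusted p = 0.886). The value of ndufa4b minus ndufa4a was 1.64 ± 0.83 (SD, n = 3) in regenerated and -1.61 ± 1.14 (SD, n = 3) in nonregenerated arrays. All 3 regenerated arrays lay above all 3 nonregenerated arrays. The difference between the copies' responses was 3.25, at a two-sided exact permutation p of 0.1, the smallest that 3 against 3 arrays allow, and 0.35 adjusted over 7 pairs of copies.

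The gene cox5ba, a copy of the nuclear subunit gene COX5B, rose in regenerated over nonregenerated neurons. Its values were 0.50, 1.05 and 1.00 in regenerated, -0.65, -0.44 and -0.30 in nonregenerated and 0.00, -0.59 and 0.22 in unlesioned arrays. No regenerated array overlapped another group. The rise was 1.32 ± 0.26, or 2.49-fold (limma adjusted p = 0.0288), and the difference from unlesioned neurons was 0.97 ± 0.26 (limma adjusted p = 0.0972). The call against nonregenerated neurons was lost without any 1 of the 3 nonregenerated arrays and without regenerated array 2 or 3, at 1.21 to 1.40.

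The remaining members of complex IV had differences of 0.42 to 1.21 from nonregenerated neurons and were not called. The gene cox6a1, a copy that mammals express outside heart and skeletal muscle, had 0.29, 1.17 and 0.92 in regenerated, -0.19, -0.57 and -0.10 in nonregenerated and -0.24, 0.00 and 0.32 in unlesioned arrays. Regenerated array 1 lay just below unlesioned array 3. The difference from nonregenerated neurons was 1.08 ± 0.27 (limma adjusted p = 0.0671), and without regenerated array 1 it was called. The 2 copies of the COX5A gene had differences of 0.69 ± 0.20 for cox5aa and 1.06 ± 0.36 for cox5ab, with all regenerated arrays above the other 6 in both.

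The 3 cytochrome c oxidase genes left out by the rule had larger differences than most members. The gene cox4i1l had 1.92, 2.30 and 1.94 in the regenerated arrays and at most 0.10 elsewhere, with a rise of 2.60 ± 0.20 over nonregenerated neurons (limma adjusted p = 0.000302). The gene cox6b1 had 1.28, 2.26 and 1.95 and rose by 2.37 ± 0.26 (limma adjusted p = 0.0021). The gene cox4i2, whose mammalian counterpart replaces the main COX4 isoform in some tissues, had -0.39, -1.49 and -2.28 and fell by 1.79 ± 0.40 (limma adjusted p = 0.0491), a call lost in 8 of 9 fits that left out 1 array. The counts and medians given for complex IV do not include these genes.

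**Figure D3:**
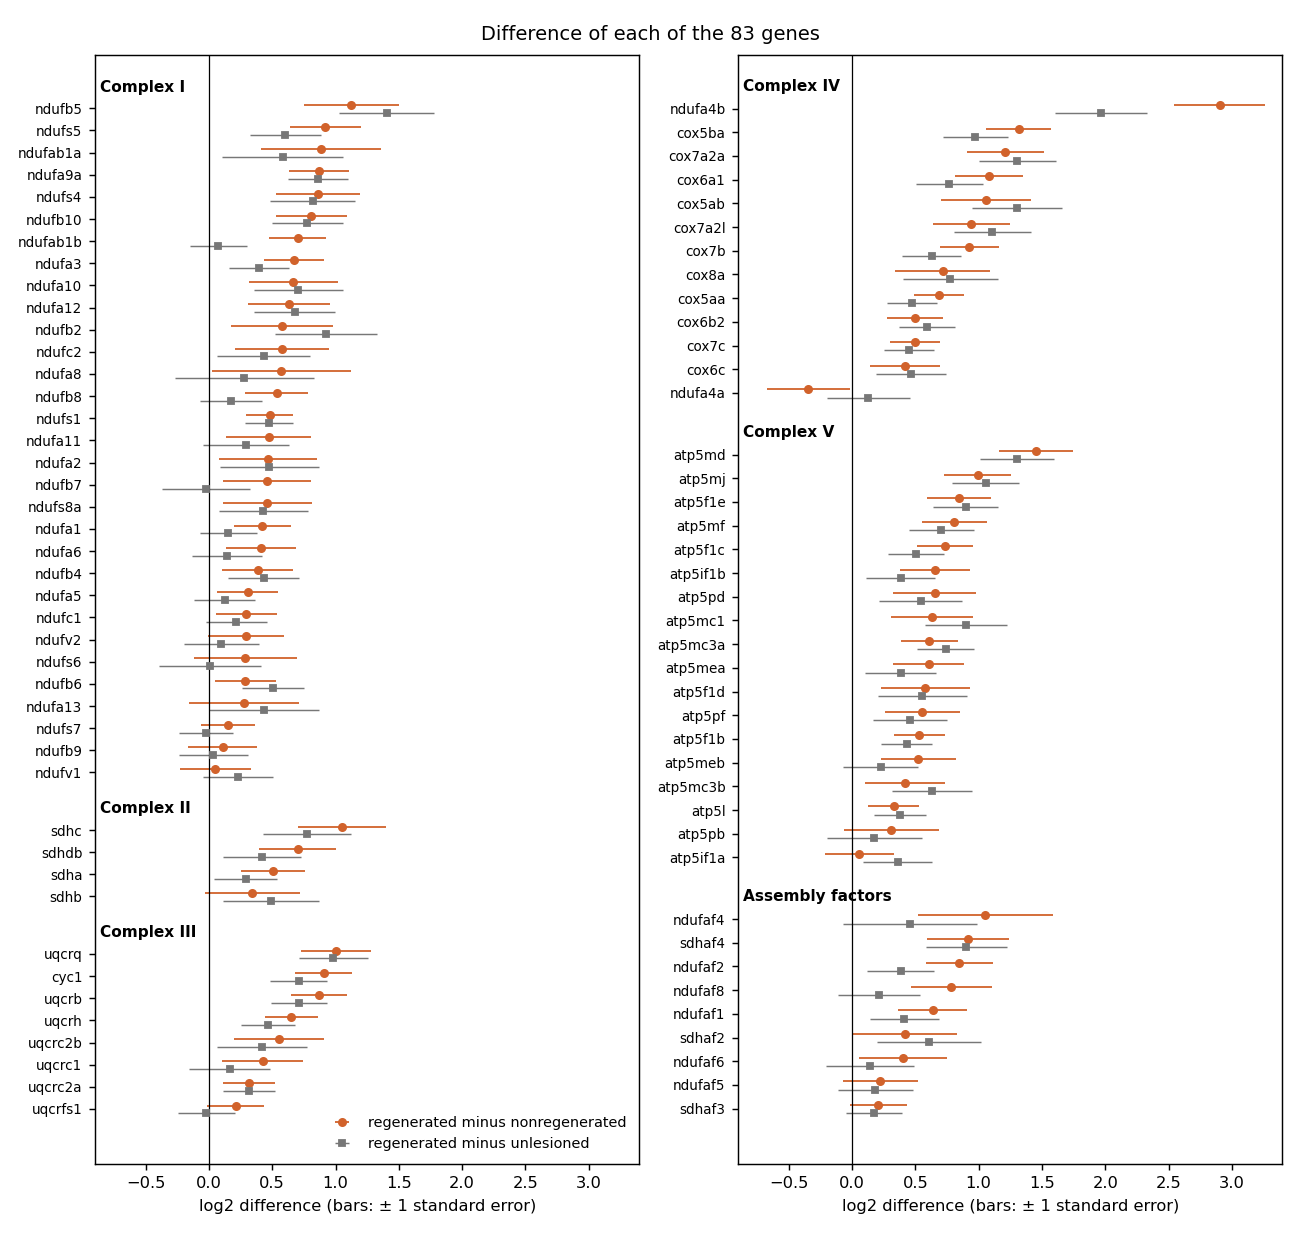
Log2 difference of each of the 83 genes, by complex, in regenerated minus nonregenerated (circles) and regenerated minus unlesioned (squares), with bars of 1 standard error. Most genes lie between 0 and 1 in both comparisons, ndufa4b lies apart at 2.90 and 1.97, and ndufa4a is the only circle below 0.

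Complex V, the ATP synthase, had medians of 0.61 against nonregenerated and 0.52 against unlesioned neurons, and all 18 estimates were above 0 in both. Mean values were 0.08, 0.62 and 0.68 in the regenerated arrays, -0.44, -0.21 and 0.15 in the nonregenerated and -0.14, -0.31 and 0.05 in the unlesioned. Regenerated array 1 lay below nonregenerated array 3. The groups did not overlap in 9 members against nonregenerated neurons, where 12.8% of all genes were free of overlap and higher, and in 8 against unlesioned neurons, where 11.0% were.

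The 1 member of complex V called was atp5md, whose mammalian counterpart is a small membrane subunit that helps hold ATP synthase dimers together. It had 0.95, 1.45 and 1.00 in regenerated, -0.21, -0.73 and 0.00 in nonregenerated and -0.26, -0.60 and 0.35 in unlesioned arrays. All regenerated arrays were above the rest. It rose by 1.45 ± 0.29, or 2.73-fold, over nonregenerated neurons (limma adjusted p = 0.0326). The difference from unlesioned neurons was 1.30 ± 0.29 (limma adjusted p = 0.0540).

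The atp5md call was the least stable of the 3. It was lost in 12 of 20 other fits, with adjusted p up to 0.125, including those without any 1 of the nonregenerated arrays and without regenerated array 2 or 3. The difference stayed between 1.24 and 1.85 in all 20. Another small membrane subunit gene, atp5mj, had 0.52, 1.00 and 0.93 in the regenerated arrays and at most 0.15 elsewhere, with a difference of 0.99 ± 0.26 from nonregenerated neurons (limma adjusted p = 0.0847). The 6 small membrane subunit genes had a median of 0.71 in that comparison.

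The rotary and catalytic parts of the ATP synthase had moderate differences. Over the 4 measured atp5f1 genes they ran from 0.53 to 0.84 against nonregenerated neurons, highest in atp5f1e (limma adjusted p = 0.123). The gene for the catalytic beta subunit, atp5f1b, had 0.18, 0.25 and 0.66 in regenerated, -0.26, 0.00 and -0.24 in nonregenerated and -0.19, -0.18 and 0.16 in unlesioned arrays. Regenerated arrays 1 and 2 were only just above unlesioned array 3. The difference was 0.53 ± 0.20 from nonregenerated neurons (limma adjusted p = 0.231). The gene for the central stalk subunit gamma, atp5f1c, had 0.16, 0.76 and 0.43 in the regenerated arrays and at most 0.10 elsewhere, with a difference of 0.73 ± 0.22 (limma adjusted p = 0.123).

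The proton-carrying c ring is made from several genes for 1 mature protein. Its 3 measured genes, atp5mc1, atp5mc3a and atp5mc3b, had differences of 0.63 ± 0.32, 0.61 ± 0.23 and 0.42 ± 0.32 from nonregenerated neurons. In atp5mc3a the regenerated arrays lay closely together at 0.50, 0.54 and 0.55, above all others. The 3 measured genes of the peripheral stalk had a median of 0.55 with no member free of overlap between the groups. Of all genes 12.8% were free of overlap and higher, so 3 genes are too few to show a contrast.

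The ATPase inhibitor, which limits reversal of the ATP synthase, has 2 measured copies. The gene atp5if1b had 0.00, 0.40 and 0.58 in regenerated, -0.65, -0.47 and 0.13 in nonregenerated and 0.32, -0.15 and -0.35 in unlesioned arrays. The groups overlapped, and the difference from nonregenerated neurons was 0.66 ± 0.27 (limma adjusted p = 0.270). The gene atp5if1a had -0.12, 0.00 and 0.69 in the regenerated arrays and a difference of 0.056 ± 0.27 (limma adjusted p = 0.939), the lowest of complex V, whose sign changed under other scalings. The value of atp5if1b minus atp5if1a did not overlap between the regenerated arrays (0.14 ± 0.25, SD, n = 3) and the nonregenerated arrays (-0.46 ± 0.29, SD, n = 3), at an exact permutation p of 0.1, or 0.35 adjusted over the 7 pairs. In the 5 other pairs of copies the regenerated and nonregenerated arrays overlapped.

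**Figure D4:**
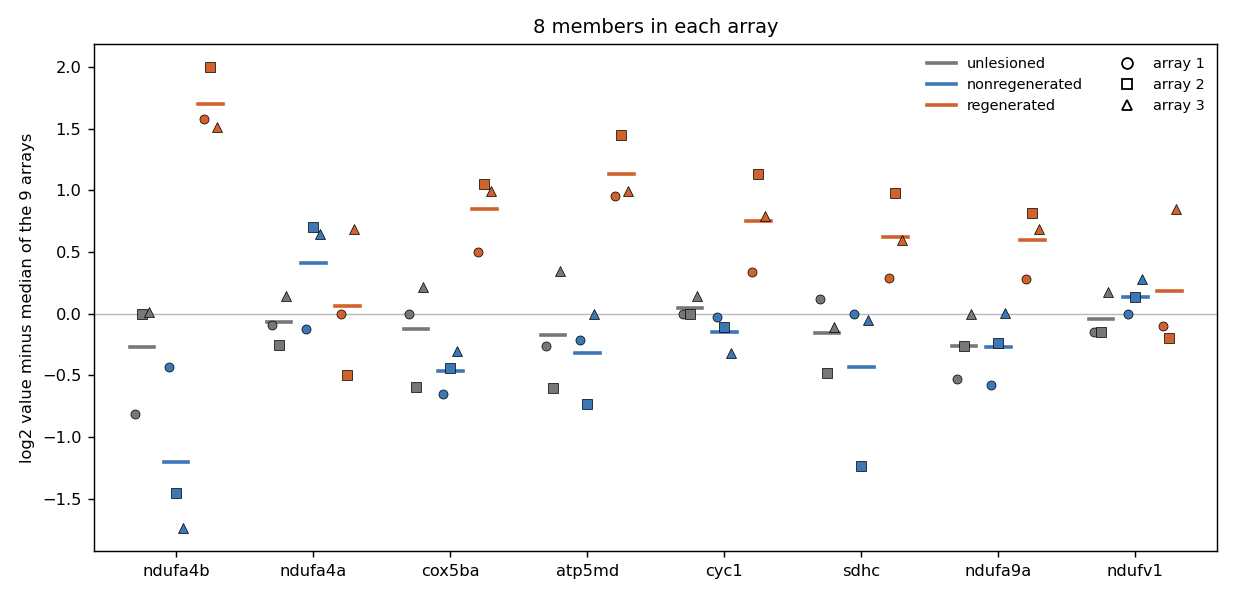
Log2 values of 8 members in each of the 9 arrays, with points for arrays and bars for group means. In ndufa4b, cox5ba and atp5md all 3 regenerated points lie above the other 6, and in ndufa4a the groups overlap.

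The 9 assembly factor genes, which help build complexes I and II and are not part of the finished enzymes, had a median of 0.64 against nonregenerated and 0.38 against unlesioned neurons. None was called. Their groups did not overlap in 4 genes in the first comparison (12.8% of all genes) and in none in the second (11.0% of all genes). The mean over these genes was 0.14, 0.35 and 0.67 in the regenerated arrays, with unlesioned array 3 at 0.18 between regenerated arrays 1 and 2.

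Other genes around the chain had smaller medians than the members as a whole. Of 77 listed genes of the Krebs cycle, carriers, assembly and nuclear control of mitochondria, 52 were measured and none was called in any comparison. Their median was 0.39 against nonregenerated and 0.36 against unlesioned neurons. In the first of these comparisons 13 of the 52 genes had an unadjusted limma p under 0.05 in the higher and 3 in the lower direction. Of all 8793 genes, 732 (8.32%) did so in the higher and 743 in the lower direction. The 16 Krebs cycle and pyruvate dehydrogenase genes had a median of 0.50, the 12 carriers 0.43, the 17 assembly genes 0.25 and the 7 genes of nuclear control 0.10 against nonregenerated neurons. The Krebs cycle list was thus slightly above complex I (0.47), and also against unlesioned neurons, at 0.45 and 0.43. There 8 of its 16 genes did not overlap and were higher, and 1 was lower, against 11.0% and 9.03% of all genes. The cytochrome c gene cycsb, the electron carrier between complexes III and IV, had 0.85, 0.85 and 0.47 in the regenerated arrays and at most 0.10 elsewhere. Its difference was 0.81 ± 0.20 from nonregenerated (limma adjusted p = 0.0622) and 0.85 ± 0.20 from unlesioned neurons (limma adjusted p = 0.0598). The largest difference from nonregenerated neurons among the 52 was 1.32 ± 0.34 in ckmt1 (limma adjusted p = 0.0711). Estimates were below 0 for 10 of the 52. Among these were the assembly gene cox11, the lowest at -0.84 ± 0.28 (limma adjusted p = 0.167), and the adenine nucleotide carrier gene slc25a4, at -0.82 ± 0.26 (limma adjusted p = 0.140).

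Ribosomal protein genes gave 2 further reference lists. The 59 mitochondrial ribosomal protein genes had a median of 0.47 against nonregenerated and 0.24 against unlesioned neurons, with none called. The 71 cytosolic ones had 0.01 and 0.24, with none called. The members' medians in the same comparisons were 0.58 and 0.46.

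Markers of cell types moved with the groups as well. Pan-neuronal markers (8 of 16 listed genes measured) had a median of 0.91 in regenerated minus nonregenerated, 3 were called higher and none lower, and their mean value was 0.09 to 0.32 in the regenerated, -1.05 to -0.28 in the nonregenerated and 0.05 to 0.38 in the unlesioned arrays. The mean of these neuronal markers was thus low in the nonregenerated arrays and overlapped between the other groups. Single markers differed. In regenerated minus nonregenerated elavl3 had -0.03 ± 0.23 and elavl4 0.15 ± 0.27. In regenerated minus unlesioned they had -0.81 ± 0.23 and -0.44 ± 0.27. Over the 8 markers, 7 estimates were above 0 in the first comparison and 5 in the second. Purkinje neuron markers (6 of 10) had a median of 4.56 in regenerated minus nonregenerated, with 5 called higher and none lower. Their mean values were 2.97 to 3.31 in the regenerated, -0.95 to -0.29 in the nonregenerated and -0.36 to 1.24 in the unlesioned arrays. Among them rorab went the other way, at -0.71 ± 0.19 from nonregenerated (limma adjusted p = 0.079) and -0.82 ± 0.19 from unlesioned neurons (limma adjusted p = 0.0561). All of its regenerated values lay below all others.

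Glial marker lists had negative medians. Radial glia and astroglia markers (13 of 16) had a median of -1.39 against nonregenerated neurons, 5 called lower and none higher, with means of -1.68 to -0.69 in regenerated, -0.01 to 0.38 in nonregenerated and -0.12 to 0.37 in unlesioned arrays. Oligodendrocyte markers (6 of 12) had -2.50, 4 called lower and none higher, with means of -2.29 to -1.19, 0.10 to 0.34 and 0.03 to 0.60. The myelin genes mbpa and mbpb did not share this fall against nonregenerated neurons, at 0.28 ± 0.48 and -0.26 ± 0.32 with overlapping groups. The lists for leukocytes (12 of 13, median 0.05), erythroid cells (4 of 6, median 1.09) and skeletal muscle (10 of 12, median 0.24) had none called in this comparison. The mean of the erythroid list was 0.84, -0.05 and -0.05 in regenerated arrays 1, 2 and 3. It was -1.29 to -0.89 in nonregenerated and 0.57 to 2.34 in unlesioned arrays. In the same order of groups, the mean of leukocytes was 0.07 to 0.12, -0.05 to 0.39 and -0.24 to 0.13. That of muscle was 0.09 to 0.28, -0.02 to 0.09 and -0.09 to 0.12. Centred values do not show which defining markers are absent, and the part of any cell type in the members' differences was not tested.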

How the data were processed

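Per the submitters' processing notes, the authors computed the deposited values with RMA on a log2 scale; its version, the build and the centring step are not given in the sources used here. Each of the 15617 probe sets had a median of 0 over the 9 arrays. The 115 control probe sets were left out; of the other 15502, the platform annotation gave 1 symbol for 10795, several for 135 and none for 4572. A gene's value was the mean of its probe sets (77 members had 1, 5 had 2 and 1 had 3). Of 107 RefSeq genes (GRCz12tu, names only) that fit the prefixes, 83 were measured. Of the members, 2 genes, ndufab1a among them, had probe sets with a suffix _s_at, _x_at or _a_at, which marks possible cross-hybridization or, for _a_at, shared transcripts of a gene.

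Group means were fitted to all 9 arrays with limma 3.58.1 in R 4.3.3 (6 residual and 3.54 prior degrees of freedom), two-sided, with Benjamini-Hochberg adjustment over 8793 genes, and checked on simulated data. Named members were those called, those with the smallest p or lowest difference per complex, and a set fixed by role. The genes ndufb9, ndufs7, uqcrh, atp5f1e, sdhaf2, slc25a4, cycsb, cox11 and ckmt1 and the markers rorab, elavl3, elavl4, mbpa and mbpb were named after their values were seen. Copies were compared by exact permutation. The labels give no batch. Members, lists, tests and alternatives were chosen with earlier results of these data known; the ribosomal lists and subunit groups were also added after seeing values. Alternatives covered scaling, array weights, left-out arrays, thresholds, covariates, moderation, probe set choice and replicate number. Figures were drawn with matplotlib 3.10.9.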

Additional observations from a re-analysis of the deposited data

How the results depend on the processing

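The number of arrays limits these results: the 95% interval of a member's difference had a median width of 1.26. Against nonregenerated neurons the number of members called, 3, became 1 with quantile normalization, array weights or an adjusted p under 0.01, 11 at an adjusted p under 0.1, and 1 to 7 when 1 array was left out (1 without nonregenerated array 1 or 2 or regenerated array 2 or 3, 5 without unlesioned array 2, 7 without regenerated array 1). Over all genes, 2.96% were called in the main fit of that comparison, 1.24% with quantile normalization and 2.24% with array weights. The share was 1.24% to 3.87% when 1 array was left out. Against unlesioned neurons the 1 call became 0 with quantile normalization or at a limma adjusted p under 0.01. It became 2 with the negative control reading as covariate, 5 at an adjusted p under 0.1, and 0 to 2 when 1 array was left out. Here 2.26% of all genes were called in the main fit, 0.716% with quantile normalization and 1.29% with the covariate. The share was 0.796% to 2.85% when 1 array was left out. The cause of these changes was not tested.

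Subtracting each array's 75th percentile moved the median of all genes in regenerated minus nonregenerated from 0.056 to -0.064, with 79 members above 0 and a members' median of 0.46. The members' median was 0.49 to 0.81 when 1 array was left out. For complex I it was 0.76 both with regenerated arrays 1 and 3 left out, which leaves array 2 alone in that group, and with the covariate. For complex III it was 0.90 and 0.89 in these fits and 0.45 to 0.83 when 1 array was left out, and against unlesioned neurons 0.74 and 0.67, and 0.31 to 0.62. For complex IV it was 0.70 to 1.04 against nonregenerated neurons when 1 array was left out. Against unlesioned neurons it was 0.57 with quantile normalization and 0.45 to 0.91 when 1 array was left out. In nonregenerated minus unlesioned it was -0.24 to 0.12, negative without unlesioned array 2.

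The atp5md call against nonregenerated neurons was lost at 1.33 with the 75th percentile, 1.25 with quantile normalization, 1.48 with array weights, 1.45 with only the 6 arrays compared, 1.77 without regenerated arrays 1 and 3, and 1.85 with the covariate; leaving out 1 array gave 1.24 to 1.61. The cox5ba call was lost at 1.24 with quantile normalization, 1.30 with array weights, and 1.52 both without regenerated arrays 1 and 3 and with the covariate; leaving out 1 array gave 1.21 to 1.49. The ndufa4b call against unlesioned neurons was lost at 1.62 with quantile normalization and 2.27 without regenerated arrays 1 and 3; leaving out 1 array gave 1.69 to 2.11. Some uncalled differences changed sign. Against nonregenerated neurons, ndufv1 was -0.070 with the 75th percentile, -0.020 with quantile normalization, -0.33 without regenerated arrays 1 and 3, -0.030 with the covariate and -0.28 to 0.24 when 1 array was left out. For atp5if1a the values were -0.064, -0.016 and -0.13 in the first 3 of these fits and -0.19 to 0.21, and for sdhb -0.16 without regenerated arrays 1 and 3 and -0.12 to 0.59. Against unlesioned neurons, ndufa4a was -0.43 without regenerated arrays 1 and 3, -0.31 with the covariate and -0.18 to 0.41.

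Replicate numbers are shared across groups. Of 9 same-number pairs, 2 correlated over 0.1 (range -0.18 to 0.24), and 0 arrays correlated best with their own number in both other groups. Both pairs over 0.1 joined a regenerated with a nonregenerated array, at 0.11 for number 1 and 0.24 for number 3, with -0.03 for number 2. Pairs of different numbers ran from -0.24 (nonregenerated array 1 with regenerated array 3) to 0.23 (unlesioned array 3 with nonregenerated array 1). Nonregenerated array 1 with regenerated array 2 had 0.13. Whether the lesioned groups share fish cannot be told from these correlations. With the replicate number as a block, 2 members and 2.31% of all genes were called against nonregenerated neurons, and atp5md (1.45) was not. Against unlesioned neurons ndufa4b (1.97) was not called and ndufb5 was called instead, with 1.65% of all genes called.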
